A study of Mus musculus with 59 samples.

Results

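Angiotensin, endothelin, adrenomedullin and catecholamines set vessel tone and the load on the heart. The genes followed here were Agt, Ace and Agtr1a of the renin-angiotensin system, Edn1, Ednra and Ednrb of the endothelin system, Adm, which encodes adrenomedullin, and Adrb1, which encodes the beta-1 adrenergic receptor. Every probe set annotated to exactly 1 of these 8 genes was taken, whatever its result. This gave 8 probe sets of 5 genes, out of 10833 single-gene probe sets of 8251 genes on the array. Agtr1a, Ednra and Adrb1 were not analysed here.

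Angiotensinogen, the product of Agt, is cut by renin to angiotensin I, which angiotensin-converting enzyme, the product of Ace, turns into angiotensin II, a constrictor of vessels and a growth stimulus for cardiac muscle and fibroblasts. Endothelin-1, the product of Edn1, is a constrictor peptide made mainly by endothelial cells, and the endothelin B receptor, the product of Ednrb, both binds it for signalling and clears it from blood. Adrenomedullin is a vessel-relaxing peptide whose gene is known to respond to low oxygen and to inflammatory signals.

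Pieces of mouse left ventricle were taken after surgery, and their RNA was hybridised to Affymetrix oligonucleotide arrays, 59 in all. The groups were the infarcted region of mice with a myocardial infarction (between the left anterior descending artery and the apex), the remote region of infarcted hearts (above that artery), the lower ventricle of sham-operated mice (below the artery) and the upper ventricle of sham-operated mice, which the labels name as the control. Infarct, remote and sham upper tissue had 3 arrays each at 1 h, 4 h, 24 h, 48 h, 1 week and 8 weeks, 18 arrays per region, and sham lower tissue had 5 arrays, 1 at each time except 8 weeks. The labels do not state the strain, age or sex of the mice. Single arrays are called lowest, middle and highest by the number in their titles within their group, and values of 3 arrays are listed in that order. The labels do not say what that number stands for or that each array of a group is a separate mouse, so the p-values measure the spread between arrays, which may be partly technical.

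Values are deposited array intensities on a linear scale, and because probe sets differ in how brightly they bind, the level of one gene is not set against that of another. Differences are given on the scale of log2(intensity + 45.6) ± SE, which understates the changes of dim genes. Their adjusted p comes from limma over 8140 probe sets (Benjamini-Hochberg), and a difference is called at an adjusted p below 0.05. The median SE of an infarct-sham difference was 0.182, and the 3 arrays per group limit the precision. Of the 8 probe sets, 7 passed the filter on dim signals (108.2 on at least 3 arrays). Agt reached that level on 12 arrays and Ednrb on 4, all of infarcted hearts, so both were kept through the arrays in which they were high. Counts of called members and the tests of Agt and Ednrb against sham are therefore a description only. Ace probe set 101428_at did not pass, with values of 11.6 to 106.7 over all arrays.

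Cardiomyocyte transcripts were present throughout: the summed intensity of 9 marker genes was 19700 to 168400 in infarct, 93580 to 157800 in remote and 128900 to 182200 in sham upper arrays, and no marker of any list was at 0 on any array. Some arrays stood apart. The highest infarct array at 8 weeks had 8348 as the sum of 5 fat cell markers, the highest infarct array at 1 week 4401 and the lowest remote array at 4 h 6493, where sham upper arrays had 1051 to 1877. Smaller excesses were in the highest remote array at 1 week (3024), the middle infarct array at 8 weeks (2975), the highest remote array at 8 weeks (2478) and the lowest infarct array at 1 week (1953). The highest infarct array at 1 week also had the lowest cardiomyocyte sum, 19700. In pieces of tissue, fewer cells of a type and less RNA per cell cannot be told apart. Up to 48 h, infarcted and sham mice have title numbers in separate ranges, so infarction and any handling of these sets of mice apart cannot be told apart at those times.

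Members were called most often in the infarcted region between 4 h and 48 h, and nearly always in the upward direction. Against sham upper tissue, 1, 4, 4, 5, 3 and 1 of the 7 probe sets were called in infarct tissue from 1 h to 8 weeks. The share called among all probe sets tested at those times was 6.34%, 11.3%, 40.7%, 49.4%, 58.4% and 19.9%. The members' count lay above that share at each time from 1 h to 48 h and below it at 1 week and 8 weeks. The 4 calls at 4 h were those of Agt, Adm and both Edn1 probe sets. Over the 6 times, 18 of 42 tests were called, 17 of them higher and 1 lower, where 31.0% of all tests were called, 16.1% higher and 14.9% lower. The higher calls include those of Agt and Ednrb, which were kept through arrays of infarcted hearts, and of both Edn1 probe sets. The counts and their direction are thus a description only, and tests of the same gene are not independent. In remote tissue 1, 1, 0, 1, 2 and 0 probe sets were called, where the share of all probe sets was 7.33%, 1.61%, 3.99%, 8.21%, 35.7% and 0.086%. In all 5 of 42 were called, each higher, where 9.49% of all tests were called, 5.45% higher and 4.04% lower. The infarct and remote comparisons share their sham arrays. Infarct and remote tissue differed directly in 0, 0, 3, 4, 2 and 1 of 7 probe sets, where 4.57%, 1.27%, 31.4%, 46.1%, 39.1% and 5.61% of all were called. In all 7 of 42 were higher and 3 lower in infarct tissue, where 21.3% of all tests were called, 11.3% higher and 10% lower.

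**Figure D1:**
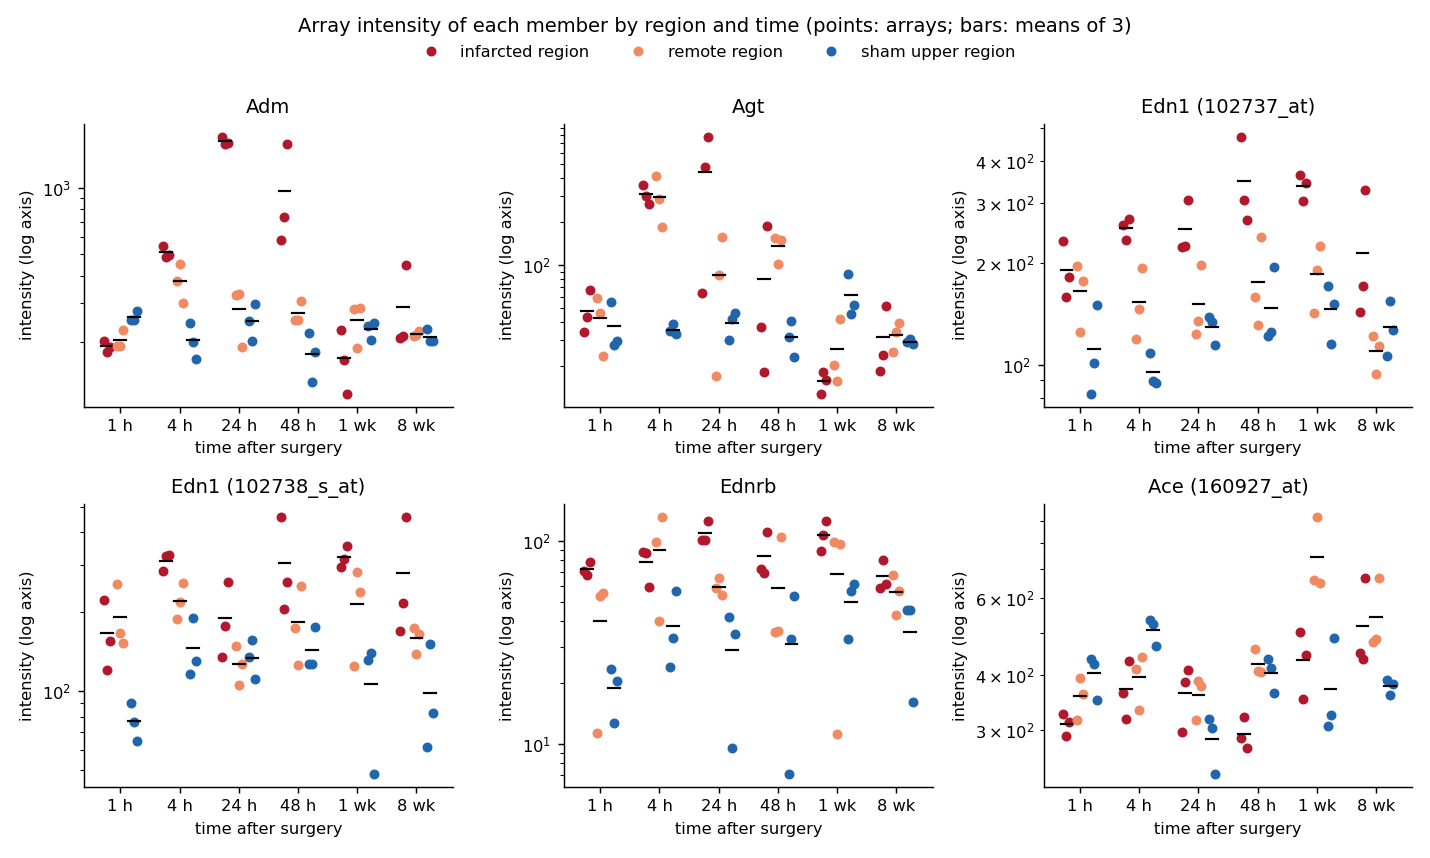
Intensity (vertical log axis, arbitrary array units) of 6 probe sets of the 5 genes by time after surgery, with infarct, remote and sham upper arrays from left to right at each time; points are single arrays and black bars the mean of 3. Adm in infarct tissue at 24 h sits at 1586.8 to 1715.2, above all remote and sham upper arrays, Agt is high in both regions of infarcted hearts at 4 h, and Ace is highest in remote tissue at 1 week.

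Agt, the angiotensin precursor gene (probe set 101887_at; chr8:124556587-124569706 in GRCm38.p6), was near the bottom of the array's range in sham hearts and rose in both regions at 4 h. At 4 h it had 360.3, 300.7 and 266.7 in infarct tissue and 412.9, 288.4 and 182.9 in remote tissue, against 35.0, 38.9 and 33.2 in sham upper tissue. All 6 arrays of infarcted hearts lay above all 3 sham arrays. Agt passed the filter only through arrays of infarcted hearts. This order and its tests against sham, here and at the other times, are therefore a description only. The difference from sham was 2.12 ± 0.40 in infarct tissue (adjusted p = 0.00025) and 2.01 ± 0.40 in remote tissue (adjusted p = 0.0016), and infarct and remote tissue differed by 0.11 ± 0.37 (adjusted p = 0.95). The lowest remote array, with the fat cell sum of 6493, held the highest of these Agt values. Neutrophil markers, 8 genes, summed to 1881 to 2255 in infarct and 2189 to 5327 in remote tissue at 4 h, against 660.8 to 717.5 in sham upper tissue, and their part was not tested. Leaving out any 1 of the 6 arrays kept the remote difference between 1.78 and 2.26, and it stayed called.

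At 24 h Agt parted between the regions. Infarct tissue had 64.3, 480.0 and 777.8 and remote tissue 17.1, 84.9 and 156.1, against 30.0, 42.3 and 46.4 in sham upper tissue. The infarct arrays all lay above sham but differed widely among themselves, and the remote arrays overlapped both groups. The lowest infarct and the lowest remote array, the dimmest of their groups, carry the same title number. Infarct tissue was higher than sham by 2.13 ± 0.40 (adjusted p = 3.2e-05) and higher than remote tissue by 1.60 ± 0.38 (adjusted p = 0.0012). The infarct-remote call was not made with only those 2 groups in the fit (adjusted p = 0.156), where the spread of these arrays was not averaged with that of other groups. The neutrophil markers summed to 10010, 15240 and 5107 on the infarct arrays, so the array with the highest Agt had the least of them, and the part of these cells in the result was not tested.

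By 48 h the order of the regions was the other way round on most arrays. Agt had 37.3, 18.1 and 185.5 in infarct tissue and 154.8, 101.2 and 149.9 in remote tissue, against 31.5, 41.0 and 23 in sham upper tissue. All remote arrays lay above sham, while of the infarct arrays the highest alone did. Remote tissue was higher than sham by 1.22 ± 0.40 (adjusted p = 0.049), a call that was lost on leaving out any 1 of the 6 arrays (adjusted p up to 0.13). Infarct minus remote was -0.75 ± 0.37 (adjusted p = 0.095), and -1.29 (adjusted p = 0.0056) without the highest infarct array, which also had the most cardiomyocyte transcripts of its group, 97640 against 75430 and 76890. At 1 week infarct tissue had 12.8, 18 and 15.9 and remote tissue 20.2, 15.8 and 42.0, against 86.7, 46.0 and 52.8 in sham upper tissue. Both regions lay below all 3 sham arrays at that time, with differences of -0.79 ± 0.40 (adjusted p = 0.084) and -0.58 ± 0.40 (adjusted p = 0.27) that did not pass. The infarct value passed with an offset of 0.05 times the median (-1.49, adjusted p = 0.022), with quantile normalization (-0.89, adjusted p = 0.05) and with the 2 groups alone (adjusted p = 0.0026).

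At 1 h and 8 weeks Agt did not stand apart. It had 34.3, 43.3 and 67.4 in infarct tissue at 1 h and 58.7, 46.8 and 23.2 in remote tissue, against 55.7, 28.1 and 29.7 in sham upper tissue, with overlapping arrays. At 8 weeks it had 18.5, 23.8 and 52.0 in infarct tissue and 25.0, 34.2 and 39.5 in remote tissue, against 29.3, 30.6 and 28.4 in sham upper tissue. The infarct difference depended on time by the F test (adjusted p = 3.7e-05), as did the remote difference (adjusted p = 0.006), and the sham values showed no called change over time (adjusted p = 0.90). In order of group means, infarct at 24 h (440.7 ± 358.4, SD, n = 3) came first, then infarct at 4 h (309.2 ± 47.4) and remote at 4 h (294.7 ± 115.1), and these 3 groups overlapped.

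The 250 bases before the start of Agt and of Adm, the genes with the largest called differences, and of Edn1, the member called at the most times, are shown with the matches to searched motifs in capitals (RefSeq, GRCm38.p6, printed 5' to 3' on the gene's strand). They come from chr8:124569707-124569956 on the minus strand for Agt, chr7:110627407-110627656 on the plus strand for Adm and chr13:42301226-42301475 on the plus strand for Edn1.
Agt: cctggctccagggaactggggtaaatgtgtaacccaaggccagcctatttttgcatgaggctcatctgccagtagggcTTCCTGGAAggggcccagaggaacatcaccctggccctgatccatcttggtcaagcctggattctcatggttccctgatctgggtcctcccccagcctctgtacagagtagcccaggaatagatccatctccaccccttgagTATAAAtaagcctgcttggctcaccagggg
Adm: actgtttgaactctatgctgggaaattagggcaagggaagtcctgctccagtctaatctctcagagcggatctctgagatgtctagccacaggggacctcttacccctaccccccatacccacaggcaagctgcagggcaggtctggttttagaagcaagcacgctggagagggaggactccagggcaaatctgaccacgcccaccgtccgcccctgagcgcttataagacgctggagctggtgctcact
Edn1: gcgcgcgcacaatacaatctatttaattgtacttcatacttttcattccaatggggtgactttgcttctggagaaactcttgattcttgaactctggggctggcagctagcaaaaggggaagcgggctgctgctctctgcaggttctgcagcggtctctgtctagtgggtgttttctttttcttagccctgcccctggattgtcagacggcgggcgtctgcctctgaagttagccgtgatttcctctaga
The motifs searched on both strands were the hypoxia response core ACGTG (in 16.6% of 32851 mouse promoters of the same length), the AP-1 site TGANTCA (6.75%), the STAT site TTCNNNGAA (7.02%), the NF-kappaB site (3.9%) and the TATA box TATAAA (12.4%). Agt held a STAT match from base 172 to base 164 before the start, where the pattern matches on both strands, and a TATA match from base 30 to base 25. The windows of Adm and Edn1 held no match, nor did the one listed for Ednrb (chr14:103843702-103843951, minus strand), which lies within the gene span used here. The window of Ace held a TATA match on the opposite strand from base 31 to base 26. A match is a stretch of letters, not a measured binding site.

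Ace, the converting enzyme gene (chr11:105967948-105989964), was measured at 3 probe sets, of which 160927_at was well above the filter level on all arrays. Its largest difference was in remote tissue at 1 week, where it had 658.1, 916.9 and 650.5, against 307.3, 325.2 and 487.4 in sham upper tissue, while infarct tissue had 503.3, 352.9 and 445.2. All remote arrays lay above all infarct and sham arrays of that time, and the infarct arrays overlapped sham. Remote tissue was higher than sham by 0.92 ± 0.16 (adjusted p = 1.3e-05), between 0.75 and 1.10 with any 1 array left out. Infarct tissue was lower than remote tissue by -0.71 ± 0.15 (adjusted p = 0.00013), and its difference from sham was 0.21 ± 0.16 (adjusted p = 0.26). Fibroblast markers, 9 genes, were high in both regions at that time, 71610 to 78810 in infarct and 73920 to 85760 in remote tissue, against 23040 to 24250 in sham upper tissue. Endothelial markers, 10 genes, summed to 11690 to 12510 in remote tissue, against 13350 to 14110 in sham upper tissue. Macrophage markers were called higher in remote tissue for 10 of 10 genes, with sums of 20640 to 30900 against 5765 to 7734 in sham upper tissue. Smooth muscle and pericyte markers were called higher for 4 of 7 genes, with sums of 8005 to 11740 against 5357 to 6345. Fat cell markers summed to 1240 to 3024 in remote tissue, against 1051 to 1278 in sham upper tissue. The part of these cells in the Ace values was not tested.

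At 48 h Ace was lowest in the infarct. It had 288.4, 321.9 and 273.8 in infarct tissue and 458.4, 410.1 and 406.3 in remote tissue, against 434.8, 416.6 and 364.9 in sham upper tissue, with all infarct arrays below all others. Infarct tissue fell below sham by -0.41 ± 0.16 (adjusted p = 0.03) and below remote tissue by -0.47 ± 0.15 (adjusted p = 0.0081). The first of these calls was lost on leaving out any of 4 of the 6 arrays, and the difference from the single sham lower array was -0.04 (adjusted p = 0.91). Cardiomyocyte markers also were low in infarct tissue at 48 h, 75430 to 97640 against 127600 to 153800 in remote and 132700 to 163600 in sham upper tissue. Endothelial markers were higher there, 13450 to 15950 against 12440 to 12930 in remote and 11470 to 12430 in sham upper tissue. The part of these cells in the Ace values at 48 h was not tested.

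At the other times no Ace difference was called. At 1 h 160927_at averaged 309.9 ± 18 in infarct tissue and 358.1 ± 39.3 in remote tissue, against 404.2 ± 46.1 in sham upper tissue (SD, n = 3 each). At 4 h they had 364.5, 318.8 and 431.8 in infarct tissue and 414.0, 334.3 and 439.9 in remote tissue, against 533.4, 522.4 and 466.6 in sham upper tissue, so both regions lay below sham without passing (-0.41 ± 0.16, adjusted p = 0.085, and -0.33 ± 0.16, adjusted p = 0.39). At 24 h infarct tissue had 297.7, 386.5 and 412.3 and remote tissue 316.1, 388.4 and 377.6, against 318.4, 304.1 and 238.7 in sham upper tissue. Sham itself moved: Ace was the one member with a called sham time course (adjusted p = 0.018, where 19.6% of all probe sets were called), highest at 4 h (507.5 ± 35.8) and lowest at 24 h (287.1 ± 42.5). That call was lost on leaving out any of 3 sham arrays. At 8 weeks the gene had 449.6, 434.8 and 667.0 in infarct tissue and 476.3, 484.4 and 664.6 in remote tissue, against 390.6, 360.2 and 382.1 in sham upper tissue. Every array of infarcted hearts lay above sham at that time, and the differences of 0.39 ± 0.16 (adjusted p = 0.075) and 0.46 ± 0.16 (adjusted p = 0.42) did not pass. The second probe set, 161224_f_at, was dim (35.2 to 192.3) and reached 108.2 on 13 arrays. It too had its highest group mean in remote tissue at 1 week (133.9 ± 51.1), without a called difference from sham (0.52 ± 0.23, adjusted p = 0.078), and it was lower in infarct than in remote tissue at 48 h (-0.54 ± 0.21, adjusted p = 0.037), a call that 4 of 6 leave-outs ended. Over the 18 group means the 2 probe sets correlated at r = 0.648.

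Edn1, the endothelin-1 gene (chr13:42301476-42307990), stayed higher in the infarct than in sham over most of the course, and its 2 probe sets can be read against each other. On 102737_at the 18 infarct arrays ran from 142.8 to 470.3 with a median of 263.3 and the 18 remote arrays from 93.8 to 237.5 with a median of 143.8, against 82.1 to 194.1 with a median of 123.5 in sham upper tissue. On 102738_s_at the same ranges were 120.6 to 457.8 (median 258.9) in infarct, 105.1 to 282.4 (169.8) in remote and 48.5 to 189.6 (126.6) in sham upper tissue. The infarct medians were highest on both, and the ranges overlapped. Over the 18 group means the 2 probe sets correlated at r = 0.805.

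At 4 h probe set 102737_at had 258.6, 232.9 and 269.9 in infarct tissue and 118.9, 145.8 and 193.0 in remote tissue, against 108.0, 89.4 and 88.2 in sham upper tissue. The infarct arrays lay above all others. Infarct tissue was higher than sham by 1.09 ± 0.21 (adjusted p = 0.00041) on this probe set and by 0.93 ± 0.28 (adjusted p = 0.022) on 102738_s_at, the second a call that was lost on leaving out any of 4 arrays. At 24 h 102737_at had 222.7, 223.9 and 306.9 in infarct tissue and 123.0, 134.7 and 196.8 in remote tissue, against 138.7, 133.8 and 114.2 in sham upper tissue. This gave 0.77 ± 0.21 over sham (adjusted p = 0.0032) and 0.60 ± 0.20 over remote tissue (adjusted p = 0.021), while 102738_s_at gave 0.37 ± 0.28 over sham (adjusted p = 0.31). The infarct-remote call at 24 h was lost on leaving out any of 3 arrays. On 102738_s_at infarct and remote tissue differed by 0.41 ± 0.26 at 24 h (adjusted p = 0.25), and their difference was called at no time.

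The difference was of similar size at 48 h and 1 week. At 48 h 102737_at had 470.3, 306.7 and 268.0 in infarct tissue and 158.5, 130.7 and 237.5 in remote tissue, against 121.9, 125.1 and 194.1 in sham upper tissue. Infarct arrays lay above all others at both 48 h and 1 week. At 48 h the difference was 1.02 ± 0.21 over sham (adjusted p = 1e-04) and 0.83 ± 0.20 over remote tissue (adjusted p = 0.00065). At 1 week it had 361.8, 303.3 and 342.6 in infarct tissue and 141.7, 189.6 and 223.6 in remote tissue, against 170.1, 115.4 and 151.3 in sham upper tissue, which gave 1.00 ± 0.21 over sham (adjusted p = 8.3e-05) and 0.74 ± 0.20 over remote tissue (adjusted p = 0.0025). Probe set 102738_s_at gave 0.85 ± 0.28 over sham at 48 h (adjusted p = 0.0096), 0.56 (adjusted p = 0.12) without the lowest infarct array, and 1.34 ± 0.28 at 1 week (adjusted p = 5.8e-05). Endothelial markers, 10 genes, moved with Edn1 at some of these times and against it at another. They summed to 12930 to 14300 in infarct tissue at 4 h, against 10430 to 12180 in sham upper tissue, and to 13450 to 15950 at 48 h, against 11470 to 12430. At 24 h they summed to 13010 to 14140 in infarct tissue, against 12490 to 14880 in sham upper tissue, and at 1 week to 11520 to 12280, against 13350 to 14110. Of the 10 markers, 4 were called higher and 0 lower in infarct tissue at 4 h, 3 higher and 3 lower at 24 h, 4 higher and 3 lower at 48 h, and 1 higher and 6 lower at 1 week. Their part in the Edn1 values was not tested.

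At 1 h and 8 weeks the Edn1 values were less settled. At 1 h 102738_s_at had 221.2, 120.6 and 155.5 in infarct tissue and 256.1, 166.7 and 151.9 in remote tissue, against 90.4, 76.5 and 64.7 in sham upper tissue. Both regions lay above sham on every array. The remote difference was called (0.93 ± 0.28, adjusted p = 0.031) but not when any of 5 of the 6 arrays was left out, and the infarct difference was 0.76 ± 0.28 (adjusted p = 0.093). On 102737_at the infarct difference at 1 h was 0.60 ± 0.21 (adjusted p = 0.083). The remote difference on that probe set was 0.44 ± 0.21 (adjusted p = 0.20), with overlapping arrays. At 8 weeks 102738_s_at had 168.9, 215.4 and 457.8 in infarct tissue and 172.9, 138.3 and 164.7 in remote tissue, against 61.5, 150.6 and 82.7 in sham upper tissue. The infarct difference from sham was 1.13 ± 0.28 (adjusted p = 0.0034), and by 0.77 (adjusted p = 0.079) without the highest array, the one with the fat cell sum of 8348; the middle array, with 2975, remained in. That call was also not made with only those 2 groups in the fit (adjusted p = 0.12). On 102737_at the infarct difference from sham at 8 weeks was 0.51 ± 0.21 (adjusted p = 0.08), with overlapping arrays. Infarct exceeded remote tissue on 102737_at at 8 weeks by 0.68 ± 0.20 (adjusted p = 0.034), and by 0.39 (adjusted p = 0.45) without the highest infarct array. On 102738_s_at that infarct-remote difference was 0.58 ± 0.26 (adjusted p = 0.17). In remote tissue at 1 week 102738_s_at was higher than sham by 0.79 ± 0.28 (adjusted p = 0.023), a call lost in 3 of 6 leave-outs, while 102737_at gave 0.26 ± 0.21 (adjusted p = 0.36). For neither probe set did the F test call a change of the infarct difference between times (adjusted p = 0.34 and 0.28).

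**Figure D2:**
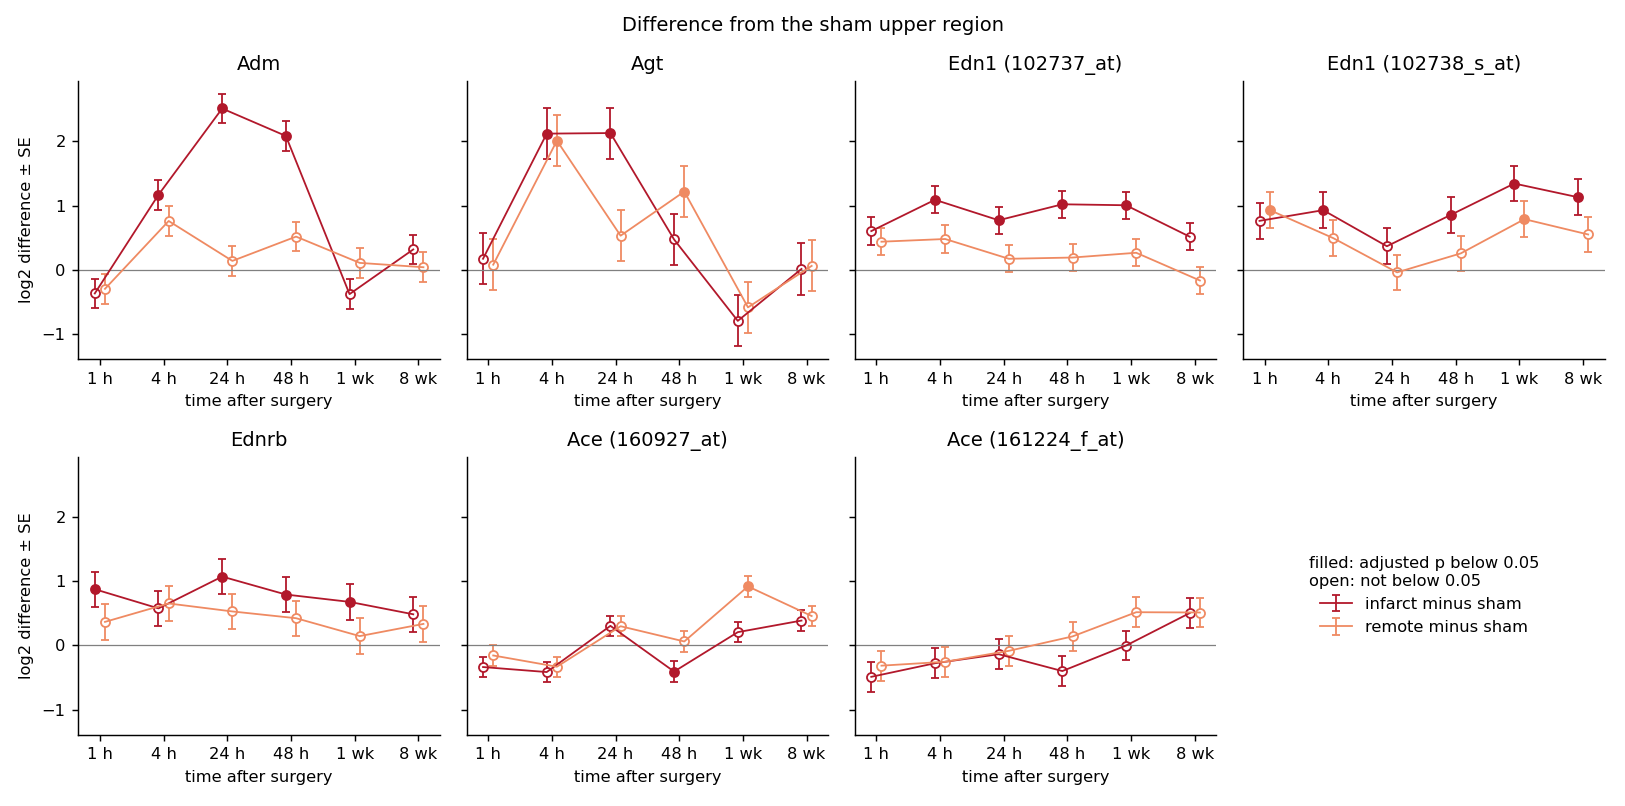
Difference from sham upper tissue (log2 of intensity + 45.6, ± SE) against time after surgery for the 7 tested probe sets, infarct in dark red and remote in orange; filled points have an adjusted p below 0.05. Adm reaches 2.51 in infarct tissue at 24 h, Agt is above 2 in both regions at 4 h, and Edn1 102737_at lies between 0.51 and 1.09 in infarct tissue throughout.

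Ednrb, the endothelin B receptor gene (103550_at, chr14:103814615-103844508), was dim and passed the filter only through 4 arrays of infarcted hearts. That its infarct arrays lay above its sham arrays at all 6 times is therefore a description only. At 24 h it had 100.2, 100.7 and 125.3 in infarct tissue and 58.5, 65.7 and 53.9 in remote tissue, against 42.2, 9.5 and 34.8 in sham upper tissue, with no overlap between the 3 groups. The infarct difference from sham was 1.07 ± 0.27 (adjusted p = 0.0016), a call kept with any 1 array left out. At 1 h it had 70.8, 67.6 and 78.6 in infarct tissue and 11.3, 53.6 and 55.2 in remote tissue, against 23.4, 12.7 and 20.3 in sham upper tissue. The infarct difference of 0.88 ± 0.27 (adjusted p = 0.045) was called, but with each of the 6 arrays left out in turn its adjusted p was 0.082 to 0.14. The 1 h call was also lost without the filter (adjusted p = 0.053) and with an offset of 1 times the median (adjusted p = 0.073).

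The later Ednrb differences were smaller. At 48 h it had 72.8, 69.5 and 110.3 in infarct tissue and 35.5, 35.9 and 103.9 in remote tissue, against 7.1, 32.9 and 53.2 in sham upper tissue, a difference of 0.79 ± 0.27 over sham (adjusted p = 0.015) that 2 leave-outs ended. At 1 week it had 89.1, 106.2 and 125.4 in infarct tissue and 98.1, 11.2 and 96.0 in remote tissue, against 32.7, 56.3 and 61.3 in sham upper tissue, a difference of 0.68 ± 0.27 (adjusted p = 0.032) that 3 leave-outs and quantile normalization ended (0.45, adjusted p = 0.16). At 4 h the infarct difference was 0.58 ± 0.27 (adjusted p = 0.19) and at 8 weeks 0.49 ± 0.27 (adjusted p = 0.21). In remote tissue the differences from sham ran from 0.15 to 0.65 and none was called, and infarct and remote tissue did not differ by the test at any time. A change of the infarct difference between times was not called (adjusted p = 0.72).

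Adm, the adrenomedullin gene (102798_at; chr7:110627657-110629820), had the largest difference of the members, a rise in infarct tissue between 4 h and 48 h. At 4 h it had 543.7, 487.3 and 498.0 in infarct tissue and 378.7, 452.0 and 300.7 in remote tissue, against 244.5, 199.2 and 166.7 in sham upper tissue. The 3 groups did not overlap, with infarct on top. Infarct tissue was higher than sham by 1.17 ± 0.23 (adjusted p = 0.00048), and the remote difference of 0.76 ± 0.23 (adjusted p = 0.088) did not pass, although it did with the sham lower arrays added to the control (0.76, adjusted p = 0.042). At 24 h Adm had 1715.2, 1586.8 and 1606.0 in infarct tissue and 326.5, 331.2 and 189.1 in remote tissue, against 247.3, 201.1 and 295.9 in sham upper tissue. The infarct arrays lay far above both other groups, which overlapped. Infarct tissue was higher than sham by 2.51 ± 0.23, 5.69-fold on the offset scale (adjusted p = 1.4e-11), and higher than remote tissue by 2.37 ± 0.22 (adjusted p = 7.7e-11), while remote tissue differed from sham by 0.14 ± 0.23 (adjusted p = 0.83).

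At 48 h Adm was spread in the infarct. It had 578.4, 741.0 and 1586.2 in infarct tissue and 250.5, 250.5 and 306.2 in remote tissue, against 219.5, 131.5 and 179.0 in sham upper tissue. The groups did not overlap. The infarct exceeded sham by 2.08 ± 0.23 (adjusted p = 8.8e-10), between 1.69 and 2.36 with any 1 array left out, and remote tissue by 1.57 ± 0.21 (adjusted p = 1.4e-07). The highest infarct array, which had the most Adm, was also the one with the most Agt at 48 h. Neutrophil markers summed to 5107 to 15240 in infarct tissue at 24 h and 10830 to 12270 at 48 h, against 433.4 to 555.7 and 534.2 to 675.3 in sham upper tissue. From 24 h to 48 h their infarct mean rose from 10120 to 11580, while that of Adm fell from 1636 to 968.5. Macrophage markers summed to 9708 to 19360 in infarct tissue at 24 h and 18220 to 27030 at 48 h, against 5521 to 7034 and 7131 to 9341 in sham upper tissue. The infarct array with the most Adm at 48 h had the lowest sums of both lists in its group, 10830 and 18220. The part of these cells in the Adm values was not tested.

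Before and after that window the Adm values lay close to sham. At 1 h it had 201.6, 180.3 and 189.2 in infarct tissue and 191.4, 190.2 and 226.7 in remote tissue, against 250.0, 250.2 and 276.6 in sham upper tissue. All arrays of infarcted hearts were below sham at 1 h, by -0.37 ± 0.23 in infarct (adjusted p = 0.39) and -0.30 ± 0.23 in remote tissue (adjusted p = 0.45). At 1 week it had 226.2, 164.6 and 115.9 in infarct tissue and 282.6, 187.8 and 285.1 in remote tissue, against 236.3, 203.7 and 242.8 in sham upper tissue. The infarct difference of -0.38 ± 0.23 (adjusted p = 0.16) was called under quantile normalization (-0.66, adjusted p = 0.014), which moved the median of all infarct-sham differences at 1 week by -0.19. At 8 weeks it had 207.4, 213.1 and 446.1 in infarct tissue and 212.2, 215.5 and 223.2 in remote tissue, against 228.3, 200.4 and 201.6 in sham upper tissue, and the one high value was again that of the array with the fat cell sum of 8348.

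The steps between successive times were tested directly, and 6 of 35 were called, 4 higher and 2 lower at the later time, where 17.1% of all were, 8.66% higher and 8.45% lower. Between 1 week and 8 weeks, where 35.1% of probe sets were called, no member was. The infarct-sham difference of Adm grew by 1.53 ± 0.33 between 1 h and 4 h (adjusted p = 0.0093, where 1.14% of probe sets were called) and by 1.34 ± 0.33 between 4 h and 24 h (adjusted p = 0.0035, where 15.6% were called). Between 48 h and 1 week it dropped by 2.46 ± 0.33 (adjusted p = 5.2e-07, where 24.7% were called). For Agt the step of 1.95 ± 0.56 to 4 h (adjusted p = 0.073) and the step of -1.66 ± 0.56 to 48 h (adjusted p = 0.053) did not pass. For Ace the difference grew by 0.72 ± 0.22 between 4 h and 24 h (adjusted p = 0.022), dropped by 0.71 ± 0.22 to 48 h (adjusted p = 0.038, where 8.94% were called) and grew by 0.61 ± 0.22 to 1 week (adjusted p = 0.039). These 3 Ace calls were lost in 5, 8 and 8 of 12 leave-outs. Over all times the infarct difference varied with time for Agt, Adm (adjusted p = 1.6e-10) and Ace 160927_at (adjusted p = 0.001), 3 of 7 probe sets where 62.6% of all were called. The remote difference varied for Agt and Ace 160927_at (adjusted p = 0.00054), 2 of 7 where 25.4% were called.

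**Figure D3:**
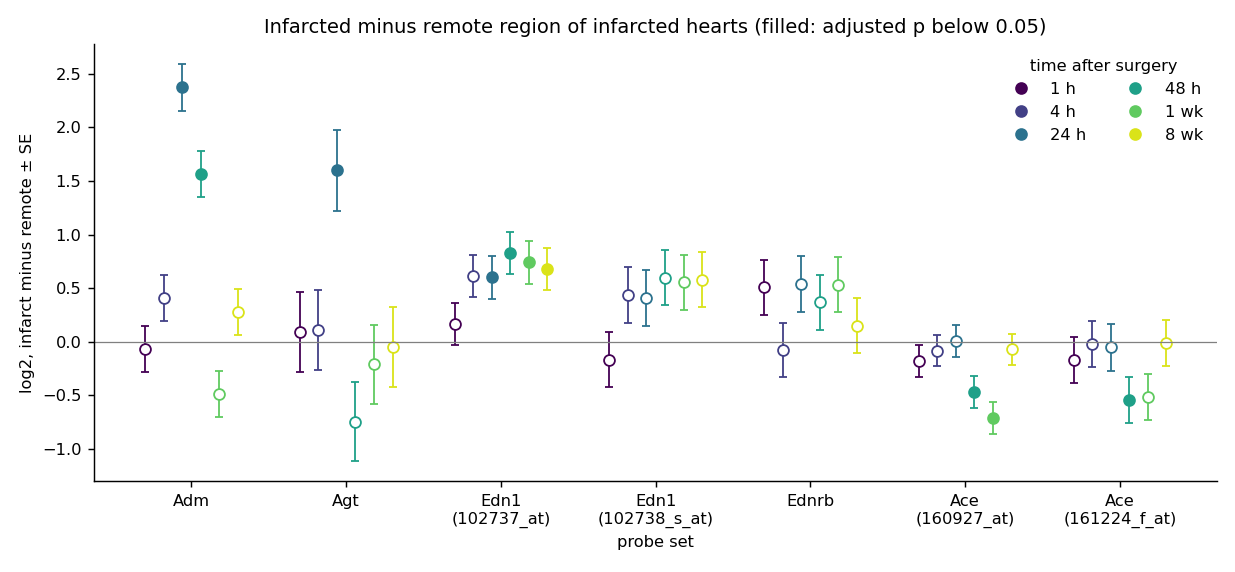
Infarct minus remote tissue of infarcted hearts (log2 of intensity + 45.6, ± SE) for the 7 tested probe sets, with the 6 times from left to right within each; filled points have an adjusted p below 0.05. Adm at 24 h (2.37) and 48 h (1.57) and Agt at 24 h (1.60) lie highest, Edn1 102737_at is above 0 at every time, and Ace is below 0 at 48 h and 1 week.

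Position in the ventricle was checked in sham hearts, whose lower piece lies where the infarct was taken. Across the 5 title numbers with both pieces, 0 of 7 probe sets differed between lower and upper tissue by limma, and 0.0% of all probe sets did. At an unadjusted p below 0.05 there were 2 of the 7 and 1129 of 8140. The 5 pairs limit the precision of this check, so the lack of calls does not show that position has no effect. Agt had 17.2 to 41.0, Adm 187.4 to 254.0, Edn1 102737_at 76.4 to 137.2, Ednrb 7.1 to 74.0 and Ace 160927_at 260.7 to 434.7 on the 5 lower arrays, within or near the sham upper ranges.

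Other genes of these pathways were taken as lists. The genes named from each list are the 4 with the smallest F test p over the infarct-sham differences. They were thus picked for differing in these data and do not stand for their list. List counts are to be read against the share of all probe sets called in infarct tissue. That share was 6.34% at 1 h, 11.3% at 4 h, 40.7% at 24 h, 49.4% at 48 h, 58.4% at 1 week and 19.9% at 8 weeks. Of 9 other renin-angiotensin genes measured (of 19 listed), 1 rose at 1 h and 1 fell at 4 h, 0 rose and 3 fell in infarct tissue at 24 h, 2 rose and 3 fell at 48 h, 5 rose and 1 fell at 1 week, and 1 rose and 1 fell at 8 weeks. The count lay below the share of all at 24 h and above it at 48 h and 1 week, by 1 gene or less each time. Their median difference at 1 week was 1.02, where that of all probe sets was 0.11. Pathway list values rest on the deposited scaling alone; quantile normalization, which was run for the members, moved the median of all differences at 1 week by -0.19 in infarct and -0.12 in remote tissue. Anpep, the aminopeptidase N gene whose enzyme trims angiotensin III, was at 834.8 in infarct and 585.6 in remote tissue at 1 week, against 147.3 in sham upper tissue, differences of 2.19 ± 0.20 (adjusted p = 1.7e-12) and 1.70 ± 0.20 (adjusted p = 1.4e-08). It is also a known surface enzyme of macrophages, whose 10 markers summed to 36860 to 42930 in infarct tissue at that time and 20640 to 30900 in remote tissue, against 5765 to 7734 in sham upper tissue, and their part was not tested. Atp6ap2, the prorenin receptor gene, rose in infarct tissue by 0.82 ± 0.16 at 48 h, 1.78 ± 0.16 at 1 week (adjusted p = 1.4e-12) and 0.71 ± 0.16 at 8 weeks. Agtrap, which encodes a protein that binds the angiotensin type 1 receptor, fell in infarct tissue by 0.65 ± 0.12 at 4 h, by 0.98 ± 0.12 at 24 h (adjusted p = 1.2e-08) and by 0.83 ± 0.12 at 48 h. Mme, the neprilysin gene whose enzyme breaks down several of these peptides, had means of 13.0, 8.33 and 5.53 in infarct tissue from 24 h to 1 week, against 58.2, 95.4 and 110.3 in sham upper tissue, all called.

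Of 8 other endothelin and adrenomedullin genes (of 14 listed), 1 fell at 1 h, 1 rose and 1 fell at 4 h and 1 fell at 24 h in infarct tissue. Further, 1 rose and 4 fell at 48 h, 2 rose and 3 fell at 1 week and 1 fell at 8 weeks, with list medians of -0.45 at 48 h and -0.09 at 1 week, where those of all probe sets were -0.05 and 0.11. Ramp2, whose protein makes the calcitonin receptor-like receptor a receptor for adrenomedullin, was lower in infarct tissue at all 6 times, with differences of -0.67, -1.03, -0.98, -0.34, -0.78 and -0.39 (SE 0.14, adjusted p up to 0.044). At 24 h, when Adm was at its highest, Ramp2 averaged 795.4 in infarct and 1465 in remote tissue, against 1622 in sham upper tissue. Ramp3, whose protein also pairs with that receptor, fell by 0.56 ± 0.18 at 48 h and by 0.71 ± 0.18 at 1 week. Pam, the gene of the enzyme that amidates peptides such as adrenomedullin, was lower by -1.14 ± 0.26 at 48 h and higher by 0.73 ± 0.26 at 1 week. Ackr3, a receptor gene whose product binds chemokines and also adrenomedullin, rose by 0.89 ± 0.19 at 4 h (adjusted p = 0.0011) and fell by 1.52 ± 0.19 at 1 week (adjusted p = 3.9e-09), when it averaged 598.4 in infarct and 974.6 in remote tissue, against 1784 in sham upper tissue.

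Of 10 other adrenergic genes (of 22 listed), 1 rose at 4 h in infarct tissue, 3 rose and 0 fell at 24 h, 3 rose and 1 fell at 48 h, 4 rose and 1 fell at 1 week and 2 rose and 1 fell at 8 weeks. From 24 h to 1 week these counts lay below the share of all probe sets called. The list had a median of 0.31 at 24 h and 0.04 at 1 week, where that of all probe sets was -0.01 and 0.11. Grk5, a kinase gene whose product turns off beta-adrenergic receptors, was higher in infarct tissue by 0.61 ± 0.17 at 4 h, 0.99 ± 0.17 at 48 h (adjusted p = 4.6e-06), 0.80 ± 0.17 at 1 week and 0.87 ± 0.17 at 8 weeks. In remote tissue it was higher by 0.65 ± 0.17 at 48 h and 0.73 ± 0.17 at 1 week. Arrb1, which encodes beta-arrestin 1, an adaptor that ends receptor signalling, rose in infarct tissue from 24 h on, by 0.71 ± 0.16, 0.84 ± 0.16, 0.52 ± 0.16 and 0.61 ± 0.16. Adra1b, the alpha-1B adrenergic receptor gene, averaged 85.5 in infarct and 94.3 in remote tissue at 1 week, against 280.3 in sham upper tissue (-1.31 ± 0.17 and -1.21 ± 0.17). Maoa, the gene of a noradrenaline-degrading enzyme, rose by 0.92 ± 0.16 in infarct tissue at 1 week.

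Among 23 measured genes (of 27 listed) that relay the signals of these receptors, 1 rose and 2 fell at both 1 h and 4 h, 5 rose and 7 fell in infarct tissue at 24 h, 5 rose and 7 fell at 48 h, 8 rose and 10 fell at 1 week, and 1 rose and 5 fell at 8 weeks, with a median of -0.15 at 1 week, where that of all probe sets was 0.11. Adcy6, a cardiac adenylyl cyclase gene, was lower in infarct tissue from 24 h on, by -1.41 ± 0.13, -1.16 ± 0.13, -1.51 ± 0.13 and -0.57 ± 0.13. Gnai3, which encodes an inhibitory G protein subunit, was higher by 0.99 ± 0.20, 0.93 ± 0.20 and 1.65 ± 0.20 at 24 h, 48 h and 1 week. Gna12, a G protein subunit gene, was lower at all 6 times, between -0.43 and -0.89. Prkar1a, a regulatory subunit gene of protein kinase A, was lower by -0.47 ± 0.10 at 24 h, -0.55 ± 0.10 at 48 h and -1.12 ± 0.10 at 1 week. Cardiomyocyte marker sums in infarct tissue were 108800 to 120600 at 24 h, 75430 to 97640 at 48 h and 19700 to 55640 at 1 week, against 132400 to 155100, 132700 to 163600 and 135500 to 153000 in sham upper tissue, and their part in these falls was not tested.

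**Figure D4:**
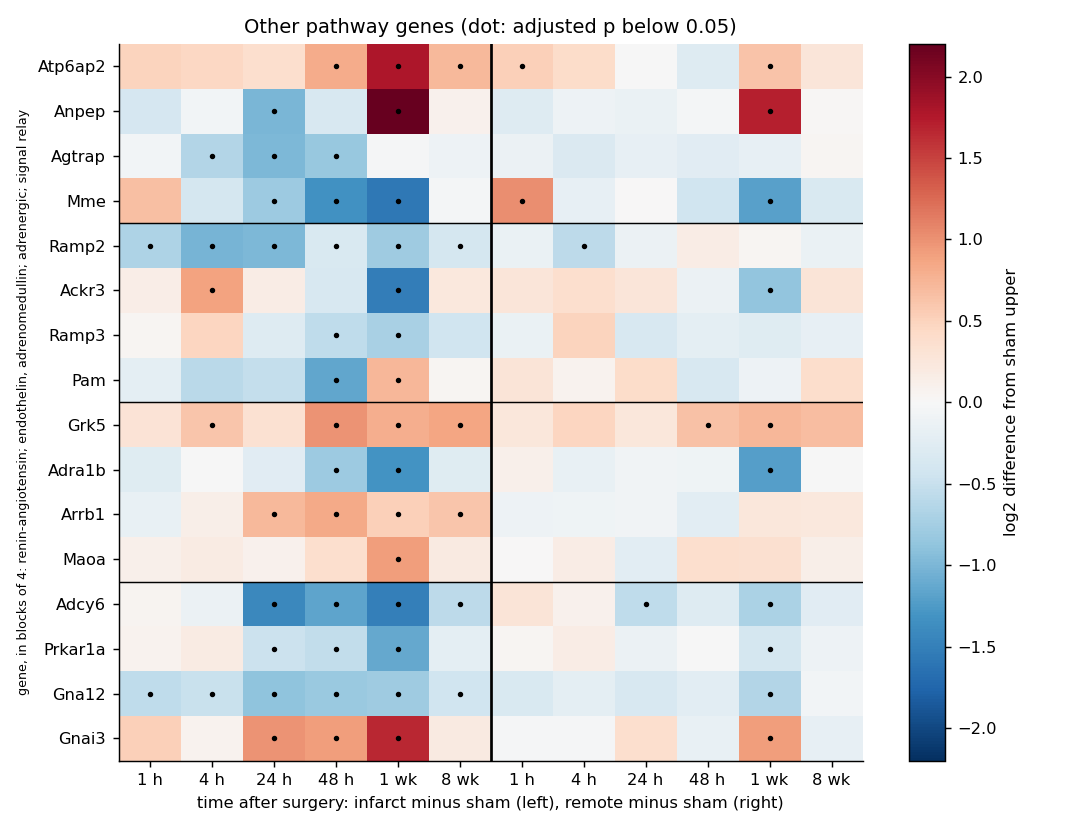
Difference from sham upper tissue (colour, log2 of intensity + 45.6) of 16 other pathway genes, 4 per list, in infarct tissue (left 6 columns) and remote tissue (right 6 columns) by time; a dot marks an adjusted p below 0.05. The 4 genes of each list are those with the smallest F test p over the infarct-sham differences. Ramp2 and Gna12 are lower in infarct tissue at all 6 times, and Anpep is higher in both regions at 1 week.

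The genes whose group means ran most like those of each member are given as a description, over the 18 means of infarct, remote and sham upper tissue, which share arrays and scaling. Adm ran most like Pgf, the placental growth factor gene (r = 0.962), Hbegf, the gene of heparin-binding EGF-like growth factor (0.946), and Ero1a, an oxidase gene of the endoplasmic reticulum (0.941), and all 3 were highest in infarct tissue at 24 h. Agt ran most like Rbm18 (0.869), Tiparp (0.858) and Nfil3 (0.857), also highest in that group. The nearest to Ednrb were Casp4 (0.881), Tut7 (0.877) and Gas5 (0.875), and the nearest to Edn1 102738_s_at were Cdk11b (0.887), Tmem123 (0.866) and Ighm (0.862). The nearest to Ace were Krt18 (0.815), H2-Q1 (0.778) and Mgp (0.748), all highest in remote tissue at 1 week. Between members, Edn1 102738_s_at and Ednrb correlated at 0.752, Adm and Agt at 0.702, and Ace with Adm at -0.277.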

How the data were processed

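The authors deposited intensities on a linear scale, 1 per probe set and array, as the values and the series' table show; how they scaled the arrays is not given in the sources used here. Array medians ran from 156.9 to 214.35, the lowest correlation between arrays of a group was 0.922, and 0 pairs were identical. All columns were used (0 left out). Of 12488 probe sets, 66 controls, 396 with several genes and 1193 with none in the platform annotation were left out.

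Intensities were changed to log2 after adding 45.6 (0.25 times the median). Probe sets reaching 108.2 (the 40th percentile) on at least 3 arrays were kept, 8140 of 6672 genes. They were fitted with limma 3.58.1 in R 4.3.3, in 1 model of 23 groups over 59 arrays with the title number as a random block (correlation 0.137, 36 residual and 4.51 prior degrees of freedom). Moderated t and F p-values had Benjamini-Hochberg adjustment, one comparison at a time. For sham lower against upper the number was a fixed block. All member probe sets are named, and per other pathway list the 4 genes with the smallest F test p over the infarct-sham differences. The members and lists were chosen with earlier results of these data known. On simulated data of 8140 probe sets, infarct against sham at 24 h recovered 30%, 76%, 100% and 100% of log2 changes of 0.5, 1, 2 and 3, with 5 unchanged probe sets called. Alternatives were the offset, quantile normalization, no filter, 1 probe set per gene, the block, the 2 groups alone, the sham lower arrays and each array left out. Figures used Python 3.11.15 and matplotlib 3.10.9.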

Additional observations from a re-analysis of the deposited data

Results flagged for a closer look

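The regions of infarcted hearts differed directly for some members. Infarct minus remote tissue, on the log2 scale, was 1.60 for Agt, 0.60 for Edn1 102737_at and 2.37 for Adm at 24 h. At 48 h it was 0.83 for Edn1 102737_at, 1.57 for Adm, -0.47 for Ace 160927_at and -0.54 for Ace 161224_f_at. At 1 week it was 0.74 for Edn1 102737_at and -0.71 for Ace 160927_at, and at 8 weeks 0.68 for Edn1 102737_at. Each passed limma's test at an adjusted p below 0.05, and since both regions are set against the same sham arrays this is also the test that their differences from sham were unequal. On the other Edn1 probe set, 102738_s_at, the infarct-remote difference was called at no time. It was 0.41 at 24 h (adjusted p = 0.25), 0.60 at 48 h (0.054), 0.55 at 1 week (0.083) and 0.58 at 8 weeks (0.17). The 102737_at calls at 24 h and 8 weeks were lost in 3 and 4 of 6 leave-outs. For Agt at 24 h the infarct and remote arrays overlapped, and the call was not made with the 2 groups alone (adjusted p = 0.156). For Ace 161224_f_at at 48 h they also overlapped. That call was lost in 4 of 6 leave-outs and with quantile normalization (adjusted p = 0.093).

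The size of the difference from sham also varied between the 6 times. In infarct tissue the F test gave an adjusted p of 3.74e-05 for Agt, 1.56e-10 for Adm and 0.00104 for Ace 160927_at. In remote tissue it gave 0.00605 for Agt and 0.000537 for Ace 160927_at.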

How the results depend on the processing

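No result of the members changed its direction while called. With the single sham lower array of each time as control, 11 infarct-sham tests were called at the 5 times that have one, and 6 calls made against sham upper tissue at those times were lost. For remote against sham, 3 were called in place of 5 with an offset of 1 times the median, and 3 with only the 2 groups compared. With 1 probe set per gene 5 infarct-remote tests were called in place of 10, from fewer probe sets by construction. The cause of the other shifts was not tested. With each array left out in turn the called tests numbered 16 to 20 for infarct against sham, 3 to 6 for remote against sham, 9 to 13 for infarct against remote, 3 to 4 for the infarct F test, 2 to 3 for the remote F test, 4 to 9 for the steps between times, 0 to 1 for the sham time course and 0 to 0 for sham lower against upper. With the infarct arrays of the highest fat cell sums at 1 week and 8 weeks out, an alternative chosen after seeing the data, 16 infarct-sham and 10 infarct-remote tests were called. Without the replicate block 18, 4 and 8 tests were called for infarct against sham, remote against sham and infarct against remote, and with the number as a fixed block 9 of the last. Under the fixed block Edn1 102737_at lost its infarct-remote call at 24 h (adjusted p = 0.091) and 8 weeks (adjusted p = 0.074), and Agt gained one at 48 h (adjusted p = 0.042). Of 17 infarct and remote arrays with the same number, 7 pairs deviated together at a correlation over 0.1 (range -0.106 to 0.412), among them all 3 at 1 week and 2 of 3 each at 48 h and 8 weeks, so arrays of the same number deviated together at some times only. Dim signals limit Agt in sham tissue and, at 1 h, 1 week and 8 weeks, in infarcted hearts. They also limit Ednrb, the Ace probe sets 101428_at and 161224_f_at and, of the other pathway genes, Mme.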
